A study of Rattus norvegicus with 3 samples.

Results

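The interferon response genes are a fixed list of 47 genes for interferon receptors, interferon regulatory factors, sensors of foreign nucleic acid and interferon-stimulated effectors. They were picked by symbol in the deposited table of P4 rat retina, where 46 of the 47 were found among 18425 genes and Xaf1 was left out. The table holds 3 libraries from wild-type Sprague-Dawley rats, 1 for each condition, made from retinas collected at P4 after an intravitreal injection of 1 µl at P1. The buffer library received citrate buffer (pH 4.5), the saline library saline, and the STZ library 10 µg of streptozotocin, a DNA-alkylating compound that had been prepared in the citrate buffer. In the study's injections for eye function and morphology, STZ went into right eyes and buffer into the left eyes of those animals. Whether the buffer and STZ libraries were paired in this way, and how many retinas entered a library, is not given in the sources used here. With 1 library per condition the spread between animals is unknown, no p-value was computed, and every difference stands without a replicate check. The rounded estimated reads summed to between 21977876 and 22031287 per library.

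Interferons are secreted proteins that cells release when they sense viral or misplaced nucleic acid. Type I interferons bind a receptor of the IFNAR1 and IFNAR2 chains and activate a complex that includes STAT2 and IRF9 and binds the interferon-stimulated response element (ISRE) of target promoters. Type II interferon binds IFNGR1 and IFNGR2 and acts on its targets through the gamma-activated site (GAS). In neural tissue, microglia carry many of these genes, and Irf8 and Irf5 are best known from macrophages and microglia.

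To show the promoter letters through which such genes are known to respond, RefSeq promoters of the assembly GRCr8 were searched from 250 bases before to 50 bases after the start. The ISRE was searched as GAAA, any 2 bases and GAAA, and the GAS as TTC, any 3 bases and GAA, on both strands and with overlapping matches allowed. Promoters were matched by gene identifier for 34 of the 46 genes. An ISRE match was held by 16 of the 34 (47.1%), beside 4.12% of the 27457 genes with a promoter. That background reaches beyond the 18425 genes measured here. A GAS match was held by 9 of the 34 (26.5%), beside 9.39%. Irf2, Ddx58, Dhx58, Zbp1, Adar, Mx2, Ifit1, Ifit2, Ifitm1, Isg15, Usp18 and Rtp4 were not matched. Gbp2, Ifi27 and Ifitm2 are shown because they hold an ISRE match before the start and passed the fold threshold in at least 1 comparison. Oas1a, with overlapping ISRE matches, and Irf1 and Irf8, with GAS matches, were chosen after the matches were seen. The stretches are written 5′ to 3′ on the strand of the gene, with the matches in capitals, and all lie before the start. They lie in GRCr8 at chr2:234005667-234005726 (+) for Gbp2, chr6:128355131-128355249 (+) for Ifi27, chr1:205482349-205482408 (-) for Ifitm2, chr12:41330403-41330462 (+) for Oas1a, chr10:38417767-38417827 (+) for Irf1 and chr19:65699088-65699147 (+) for Irf8.
Gbp2: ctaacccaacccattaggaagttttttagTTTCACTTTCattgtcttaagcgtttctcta
Ifi27: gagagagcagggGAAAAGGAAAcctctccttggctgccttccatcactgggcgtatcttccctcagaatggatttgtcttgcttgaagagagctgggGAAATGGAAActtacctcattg
Ifitm2: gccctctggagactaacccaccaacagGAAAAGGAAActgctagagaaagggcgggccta
Oas1a: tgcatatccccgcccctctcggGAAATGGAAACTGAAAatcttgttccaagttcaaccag
Irf1: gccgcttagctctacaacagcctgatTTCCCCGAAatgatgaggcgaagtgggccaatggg
Irf8: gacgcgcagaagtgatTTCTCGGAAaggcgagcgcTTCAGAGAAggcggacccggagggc
A match says only that these letters stand in the window.

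All 12 retinal marker genes had reads in every library, although Atoh7, a factor of early-born ganglion cells, had only 3, 3 and 1 reads in the buffer, saline and STZ libraries. All triplets of values are given in that order. Marker genes of other cells had unequal reads between the libraries. The 10 lens genes summed to 238, 571 and 3293 reads, with STZ highest, but the single genes were unlike. Most of these reads came from crystallin genes, such as Cryba1 with 22, 62 and 731. Mip counted 73.23, 73.21 and 86.29 reads, Grifin 2, 10 and 13 and Lim2 1, 8 and 9, which did not set STZ apart from saline. Pmel and Tyr, which serve pigment synthesis, had 252, 940 and 240 and 16, 118 and 14 reads, so the saline library stood apart for these genes. In the same pigment epithelium list, Tyrp1, with 76, 236 and 81 reads, and Mlana, with 4, 16 and 7, shared this. Rlbp1, at 6996, 6571 and 5501 reads, and Ttr, at 477, 398 and 456, did not. The 8 genes of that list summed to 7826, 8286 and 6308 reads. In bulk RNA, fewer cells of a type and less RNA per cell cannot be told apart.

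Levels are FPKM, the authors' fragment counts scaled by transcript length and library total, so genes can be compared per length. Most interferon response genes were weakly expressed. Their median FPKM was 0.855, 0.72 and 1.97, beside 7.37, 7.57 and 7.74 over all genes. In buffer 25 of the 46 lay under an FPKM of 1, against 24 in saline and 17 in STZ. Ifnar1, which encodes a chain of the type I receptor, had the highest level of the 46 in every library, with an FPKM of 76.6, 75.0 and 68.5. Irf3, the factor that sensors activate first, came next with 52.0, 53.2 and 57.2. Ifngr1 and Adar held the third and the fourth place in every library. At the low end, Ifit1, Ifit3, Ifi44l and Zbp1 lay under an FPKM of 0.1 in both controls. Without replicates it is not known which neighbours in this order differ beyond the spread between animals.

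**Figure D1:**
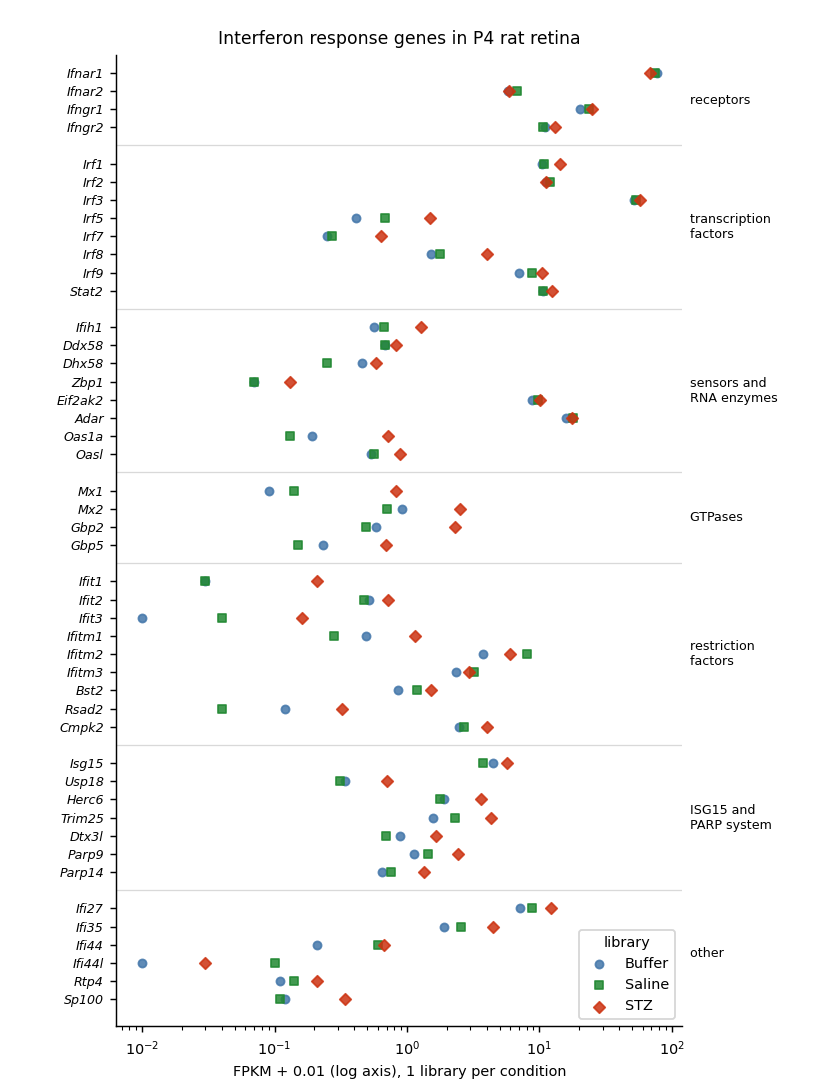
FPKM of the 46 interferon response genes in the buffer, saline and STZ libraries, on a log axis after adding 0.01, with genes grouped by role and 1 point per library. Ifnar1 and Irf3 lie furthest to the right in all 3 libraries, the STZ points of all 4 GTPase genes lie to the right of both controls, and Ifitm2 is highest in saline, at 8.02.

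In STZ against buffer, 10 of the 46 genes passed the threshold upward and 0 downward. The fold change was (FPKM + 1)/(FPKM + 1), and the threshold, taken from the methods of the study, lies at a log2 fold change of 0.62 upward and -0.62 downward. The 10 genes are 21.7% of the list, beside 2.25% of all 18425 genes upward and 1.04% downward. They were Gbp2, Trim25, Irf8, Ifi35, Mx2, Irf5, Mx1, Ifi27, Parp9 and Herc6. All 10 were among the 38 genes with a mean of at least 10 reads, where 2.58% of all such genes passed upward and 1.15% downward. Over the list, 44 of 46 folds were above 1, beside 53.9% of all genes, and the median log2 fold change was 0.37, beside 0.02.

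The constant of 1 holds down the folds of genes with a low FPKM. The ratio of read shares was therefore taken too, with an exact Clopper-Pearson 95% interval that covers counting error only. In STZ against buffer this interval lay above 1 for 30 of the 46 genes and below 1 for 1, beside 22.2% and 15.8% of all genes with a read. Of those 30, 19 with a read in buffer were short of the fold threshold, 9 of them at an FPKM under 1 in buffer.

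Against saline, 9 of the 46 genes passed upward and 0 downward, beside 2.04% and 1.75% of all genes. They were Gbp2, Mx2, Irf8, Ifitm1, Herc6, Trim25, Mx1, Dtx3l and Ifi35. With a mean of at least 10 reads, 8 of 38 passed upward, beside 2.37% upward and 1.95% downward. The median log2 fold change was 0.31 and 39 folds were above 1, beside a median of 0 and 49.9% of all genes. Intervals lay above 1 for 26 genes and below 1 for 1, beside 22.5% and 19.8%. Both comparisons share the STZ library.

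The controls differed less by these measures. In saline against buffer, Ifitm2 alone of the 46 passed upward and 0 passed downward, beside 1% and 0.429% of all genes, and beside 1.01% and 0.443% with a mean of at least 10 reads. The median log2 fold change was 0.04, beside 0.01. Intervals lay above 1 for 8 genes and below 1 for 0, beside 13.6% and 10%.

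Other call rules gave other counts. With a constant of 0.1 in place of 1, 27 genes passed upward and 0 downward in STZ against buffer, beside 7.77% and 4.51% of all genes. The same constant gave 22 upward and 1 downward against saline, beside 6.87% and 6.89%, and 3 upward and 3 downward in saline against buffer, beside 6.04% and 2.94%. A fold of 2 or 0.5 was passed upward by 3, 2 and 0 genes in the comparisons in that order. The matching percentages of all genes were 0.901%, 0.706% and 0.391% upward and 0.282%, 0.461% and 0.152% downward. From TPM, 17, 12 and 1 genes passed upward, beside 3.28%, 3.12% and 1.9% upward and 1.65%, 2.78% and 0.706% downward. Gbp2, Trim25 and Irf8 were the genes past a fold of 2 against buffer. With the constant of 0.1, the folds to buffer of Mx1, Gbp2, Irf5 and Irf7 were 5.06, 3.57, 3.18 and 2.15, and Irf7 then passed.

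**Figure D2:**
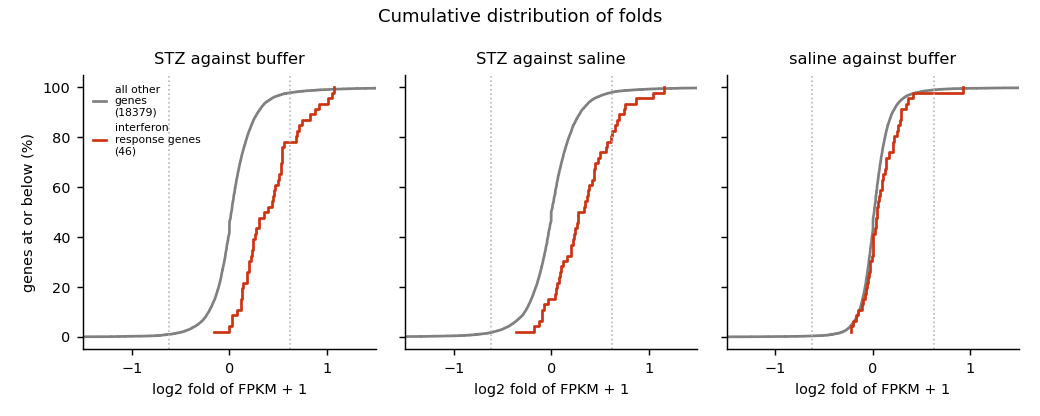
Cumulative percentage of genes at or below each log2 fold of FPKM + 1, for the 46 interferon response genes and all other genes, in 3 comparisons, with dotted lines at -0.62 and 0.62 and the axis ending before the largest changes. The curve of the interferon genes lies to the right in both STZ comparisons, with medians of 0.37 and 0.31, and near the other genes in saline against buffer, with a median of 0.04.

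The 4 receptor genes passed the threshold in no comparison. Ifnar1 counted 6891, 6706 and 6170 reads. It was the gene with an interval below 1 in both STZ comparisons, at a ratio of 0.894 (0.863 to 0.925) to buffer and 0.918 (0.887 to 0.95) to saline. This decrease exceeded counting error but was far from the threshold. Ifnar2, the other type I chain, counted 334, 392 and 342 reads and was highest in saline. For the type II receptor, Ifngr1 counted 725, 847 and 884 reads and Ifngr2 counted 576, 559 and 683. Saline thus lay near STZ for Ifngr1 and near buffer for Ifngr2. The ratio of STZ to saline was 1.04 (0.946 to 1.15) for Ifngr1 and 1.22 (1.09 to 1.37) for Ifngr2.

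Of the 8 transcription factors, Irf5 and Irf8 passed upward against buffer, and Irf8 also against saline. Irf8, a lineage factor of macrophages and microglia, counted 87, 101 and 233 reads. The STZ library was well above both controls, with folds of 2.01 and 1.83 and a read ratio to buffer of 2.67 (2.08 to 3.46). Irf5, which acts downstream of Toll-like receptors, counted 20, 30 and 67 reads. Its fold was 1.78 relative to buffer and 1.49 relative to saline, which missed the threshold. Irf7, which amplifies type I interferon production and is itself an interferon target, counted only 9, 10 and 25 reads. Its fold to buffer was 1.31 and missed the threshold, while its read ratio was 2.77 (1.25 to 6.75).

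The more abundant factors differed less. Irf1, an early target of type II interferon, counted 412, 428 and 572 reads, with a read ratio to buffer of 1.39 (1.22 to 1.58). Irf9, the DNA-binding subunit of the type I complex, counted 266, 344 and 417 reads, with saline between the others. Its ratio to buffer was 1.56 (1.34 to 1.83) in STZ and 1.29 (1.1 to 1.52) in saline. Stat2, its partner, counted 808, 802 and 926 reads, and both controls were alike. Irf3 counted 1644, 1682 and 1789 reads. Irf2, which competes with Irf1 for the same sites, counted 427, 416 and 444 reads, with a ratio to buffer of 1.04 (0.907 to 1.19).

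The Mx and Gbp genes encode large GTPases that restrict viruses and intracellular pathogens, and 3 of these 4 passed upward against each control. Gbp2 had the largest fold of the 46 genes in both STZ comparisons, 2.1 and 2.22, from 27, 23 and 109 reads. Its read ratio was 4.03 (2.62 to 6.39) to buffer and 4.73 (2.99 to 7.77) to saline. The ISRE letters printed above for Gbp2 stand close to its start, and their part in its level was not tested. Mx2 counted 60, 48 and 150.75 estimated reads, with folds of 1.84 and 2.07. Mx1 counted 5, 8 and 52.25, with folds of 1.68 and 1.6. The STZ values of these paralogs are fractional and add up to a whole number, so the split between them is uncertain. Their sum was 65, 56 and 203 reads, a ratio of 3.12 (2.35 to 4.19) to buffer and 3.62 (2.68 to 4.95) to saline. The summed ratio of saline to buffer was 0.862 (0.592 to 1.25), an interval that held 1. Gbp5, which promotes inflammasome assembly, counted 12, 8 and 38 reads. Its folds of 1.38 and 1.47 missed the threshold, while its read ratio to buffer was 3.16 (1.62 to 6.64).

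None of the 8 sensors and RNA enzymes passed the threshold in any comparison, and their folds in STZ against buffer ran from 1.06 to 1.46. Adar, which edits adenosine in double-stranded RNA, had the highest level of the group, with 1803, 2051 and 1992 reads, and was highest in saline. Eif2ak2, the kinase PKR that stops translation, counted 693, 770 and 797 reads. The inducible sensors had fewer reads. Ifih1, the sensor MDA5 of long double-stranded RNA, counted 44, 53 and 102 reads, with a ratio to buffer of 2.31 (1.61 to 3.37). Ddx58, the sensor RIG-I, counted 61, 61 and 74 reads, with a ratio of 1.21 (0.851 to 1.73). Dhx58, a relative of both, counted 21, 14 and 32. Oasl counted 20, 21 and 33 reads, and the intervals of Ddx58, Dhx58 and Oasl held 1 against buffer. Oas1a, which makes the second messenger that activates RNase L, counted 5, 3.34 and 19.66 reads, with a ratio to buffer of 3.99 (1.45 to 13.6). Oas1a has near-identical family members and fractional reads, so this value is uncertain. Zbp1, a sensor of Z-form nucleic acid, counted 2, 2 and 4 reads, with a ratio of 2 (0.286 to 22.1), and a difference was not detectable at this depth.

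Among the 9 membrane and IFIT restriction factors, 0 passed against buffer and Ifitm1 passed against saline. Cmpk2, a mitochondrial nucleotide kinase, counted 169, 174 and 270 reads, with a ratio to buffer of 1.59 (1.31 to 1.94). Rsad2, the antiviral enzyme viperin, counted 8, 2 and 23 reads, with a ratio to buffer of 2.87 (1.24 to 7.42). Both genes had intervals above 1 against each control. The Ifit genes, classical type I targets, included some of the lowest levels of the list. Ifit1 counted 1, 1 and 8 reads, with a ratio to buffer of 7.99 (1.07 to 354). Ifit3 counted 0, 1 and 6 reads. Its bound, 2.0, sets the STZ reads against a floor of 3 reads in the buffer library and is not an interval limit. Ifit2 was better covered, with 36, 32 and 50 reads and an interval to buffer of 0.885 to 2.19 that held 1. Bst2, the tether that holds virus particles at the cell surface, counted 10, 14 and 18 reads, and its intervals held 1.

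The Ifitm genes encode small membrane proteins that block virus entry. Ifitm2 had an FPKM of 3.76, 8.02 and 6.02, from 33, 70 and 53 reads. Saline was the highest library, with a fold of 1.89 and a read ratio of 2.12 (1.38 to 3.32) relative to buffer. STZ lay between, with a read ratio of 1.6 (1.02 to 2.56) to buffer and 0.755 (0.518 to 1.09) to saline. Ifitm3 counted 19, 26 and 24 reads in the same order of libraries, and its intervals held 1 in all comparisons. Ifitm1 counted 5, 3 and 12 reads, and its fold of 1.69 to saline rests on a mean under 10 reads and was 1.36 from CPM. The 3 genes are close copies. The methods of the study state that reads with several locations were discarded, but fractional counts such as those of Mx1 and Mx2 do not follow from discarding alone, so how shared reads were handled is not known. Of the 8 pigment epithelium genes, Pmel, Tyr, Tyrp1 and Mlana passed upward in saline against buffer, as Ifitm2 did, beside 1% of all genes. Rpe65, with 0 reads in buffer and 2 in saline, did not pass. Neither did Best1, Rlbp1 and Ttr, and the last 2 were lower in saline than in buffer. The 5 border macrophage genes summed to 15, 93 and 111 reads, with Cd163 and Pf4 at 0 in buffer. The part of these cells in the level of Ifitm2 was not tested.

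The ISG15 and PARP group holds a ubiquitin-like modifier, its ligases and protease, and enzymes of ADP-ribosylation. All 7 genes had folds above 1 against both controls, 3 of 7 passed upward in each comparison, and the median log2 fold changes were 0.51 and 0.50. Trim25, a ligase that assists RIG-I, counted 76, 111 and 210 reads, with folds of 2.07 and 1.62. Saline lay between the others for Trim25, at a read ratio of 1.46 (1.08 to 1.98) to buffer. Herc6, a ligase that attaches ISG15 in mice, counted 175, 164 and 339 reads, with folds of 1.61 and 1.68. Its controls were close and its read ratio to buffer was 1.93 (1.61 to 2.33). Parp9 and Dtx3l form a complex, and Parp14 is a related enzyme. Parp9 counted 69, 89 and 152 reads, with folds of 1.61 and 1.4, and passed only against buffer. Parp14 counted 97, 113 and 202 reads, with folds of 1.43 and 1.34 that missed the threshold. The read ratios to buffer of Parp9, Parp14 and Dtx3l were 2.2, 2.08 and 2.06.

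For Dtx3l the unit mattered. It counted 49, 58 and 101 reads, but its FPKM was 0.87, 0.68 and 1.65, so saline lay below buffer by FPKM and above it by reads. Its fold to saline was 1.58 from FPKM, past the threshold, and 1.53 from CPM, short of it. FPKM and read ratios differed by over 1.1 times for 4, 4 and 5 of the 38 genes with a mean of at least 10 reads, in the comparisons of STZ to buffer, STZ to saline and saline to buffer. Isg15, the modifier itself, counted 44, 41 and 58 reads, with read ratios of 1.32 (0.874 to 1.99) and 1.41 (0.93 to 2.16) to the controls. Usp18, the protease that removes ISG15, counted 10, 9 and 21 reads, with ratios of 2.1 (0.945 to 4.99) and 2.33 (1.02 to 5.77). A difference from buffer exceeded counting error for neither gene.

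Among the 6 other interferon-stimulated genes in the table, Ifi27 and Ifi35 passed upward against buffer. Ifi27, a small mitochondrial membrane protein, had an FPKM of 7.12, 8.82 and 12.3, from 89, 110 and 154 reads, with folds of 1.64 and 1.35. Ifi35 counted 35, 47 and 83 reads, with folds of 1.89 and 1.55. The second fold was just past the threshold and fell short of it, at 1.53, after TMM scaling. Saline lay between buffer and STZ for both genes. Ifi44 counted 8, 21 and 24 reads, so that buffer was low and saline was close to STZ, with a ratio of saline to buffer of 2.63 (1.12 to 6.86). Ifi44l counted 0, 4 and 1 reads, and no fold of STZ to buffer is given. Rtp4 counted 3, 4 and 6 reads and Sp100 counted 3.01, 2.76 and 9.15, with intervals to buffer of 0.426 to 12.3 and 0.747 to 17.2 that held 1.

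**Figure D3:**
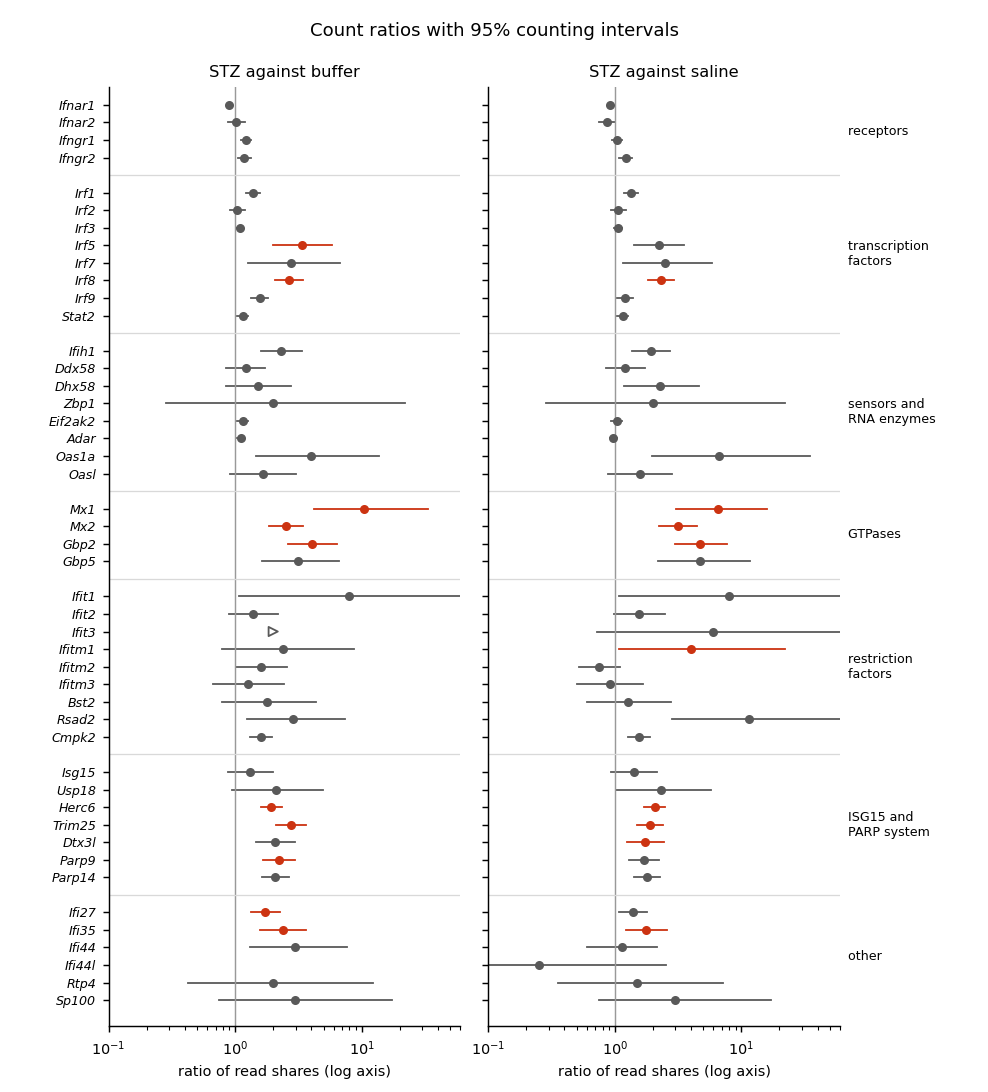
Ratio of each gene's share of the library reads in STZ to that in buffer (left) and saline (right), on a log axis, with exact 95% counting intervals as lines that end at the axis edges, red where the fold of FPKM + 1 passed the threshold upward. The triangle marks Ifit3 at 2.0, relative to a floor of 3 reads in buffer, which is not an interval limit. Ifi44l has no point on the left. In all, 30 genes with Ifit3 among them have intervals above 1 against buffer and 26 against saline.

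Genes of the same pathway outside the list were taken from a second list of 88 symbols, of which 70 were in the table. That list was chosen with earlier results of these data known, so it is no independent check. In STZ against buffer 11 of the 70 passed upward and 0 downward, beside 2.25% and 1.04% of all genes, and their median log2 fold change was 0.12, beside 0.02. The 11 genes are 15.7% of the 70. Relative to saline, 7 passed upward and 0 downward, beside 2.04% and 1.75%. In saline against buffer 0 passed either way, beside 1% and 0.429%. The median log2 fold change of the 70 was 0.06 in each of these comparisons, beside 0 and 0.01 over all genes. Igtp, Irgm, Irgm2 and Ifi47, immunity-related GTPases known as targets of type II interferon, passed against buffer. Irgm2 counted 32, 42.82 and 216.05 reads and Igtp 12, 25.18 and 80.95, with folds to buffer of 2.76 and 2.29 and with fractional, thus uncertain, reads. Ifi47 counted 13, 33 and 66 reads and Irgm 10, 16 and 45, with folds to buffer of 2.07 and 1.67. In both, saline lay between the others. Others past the threshold against buffer were Ptpn6, a phosphatase of blood cells, with a fold to buffer of 2.2, and Lgals3bp with 2.09. Isg20, an RNA exonuclease, passed with 1.97, Nmi with 1.68, Slfn2 with 1.63 and the DNA sensor Aim2 with 1.56. Against saline, Irgm2, Igtp, Ptpn6 and Lgals3bp also passed, with folds of 2.5, 1.83, 1.89 and 2.05. Ifi47, Irgm, Isg20, Nmi, Slfn2 and Aim2 missed the threshold there, with folds of 1.48, 1.5, 1.41, 1.43, 1.47 and 1.29. Of 12 interferon ligand symbols 1 was in the table, Ifne, with 2, 0 and 2 reads, and the other ligands were not analysed here.

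Marker lists of other cell types were set beside the interferon genes. The 18 microglia markers summed to 2101, 2507 and 5443 reads, and none was at 0. Of them 14 passed upward and 0 downward in each STZ comparison, and the summed ratio was 2.59 (2.46 to 2.72) to buffer and 2.17 (2.07 to 2.27) to saline. The background over all genes was 2.25% upward and 1.04% downward against buffer and 2.04% and 1.75% against saline. By role, the GTPases had a summed ratio to buffer of 3.36 (2.69 to 4.22). The receptors had 0.946 (0.917 to 0.975), but Ifnar1 holds most of their reads, and the other 3 receptors together had 1635, 1798 and 1909 reads and a ratio of 1.17 (1.09 to 1.25). The ISG15 and PARP group had 2.08 (1.87 to 2.31) and the transcription factors 1.22 (1.16 to 1.27). The border macrophage genes had a summed ratio of STZ to buffer of 7.39 (4.29 to 13.6) and of STZ to saline of 1.19 (0.896 to 1.59), and the single genes were unlike. Folr2, with 5, 8 and 48 reads, passed upward against both controls. Cd163, with 0, 14 and 1 reads, and Lyve1, with 6, 23 and 14, were highest in saline. Mrc1, with 4, 43 and 41 reads, and Pf4, with 0, 5 and 7, were low in buffer and close in saline and STZ. The 3 T and NK cell genes in the table had 1, 5 and 10 reads in all, with Prf1 and Nkg7 at 0 in buffer and STZ. The 4 neutrophil genes in the table had 36, 50 and 82 reads, of which Csf3r held 36, 43 and 74. S100a8, with 0, 2 and 3 reads, S100a9, with 0, 5 and 4, and Mpo, with 0, 0 and 1, were close in saline and STZ. Of the 10 endothelial genes, 4 passed downward and 0 upward against each control. Kdr held 13149, 14564 and 9972 of their reads, and the other 9 genes together had 1321, 1166 and 707, a ratio of STZ to buffer of 0.534 (0.487 to 0.586). Most microglia markers and the lens crystallins were higher in the same library as the interferon genes. Their part in the interferon result was not tested.

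**Figure D4:**
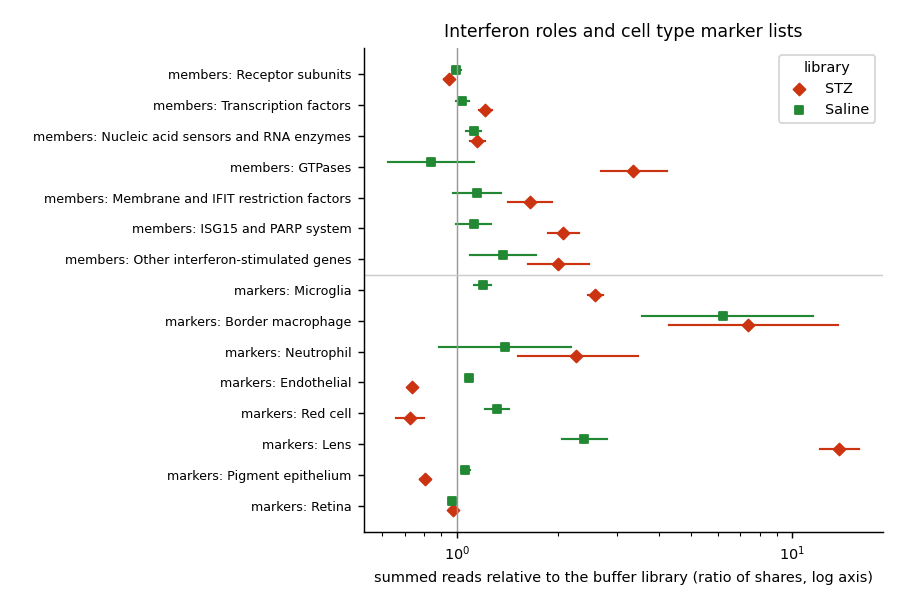
Summed reads of each role of the interferon response genes and of cell type marker lists, as a ratio of shares to the buffer library on a log axis, for STZ and saline, with exact 95% counting intervals. In STZ the receptors, with Ifnar1 as most of their reads, lie at 0.946, the GTPases at 3.36 and the microglia markers at 2.59, while in saline the roles lie between 0.837 and 1.37.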

How the data were processed

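Total RNA of P4 retinas was sequenced in 3 libraries. The authors trimmed the reads, mapped them with TopHat2, discarded those with several locations by their methods, and calculated FPKM with a custom R script. The submitters' processing notes also name FastQC and the build rn6. The counter and the annotation are not given in the sources used here. The authors deposited FPKM, TPM and an estimated count per gene. Between 12.9% and 13.2% of the deposited estimated counts were fractional, and counts were rounded for intervals. How shared reads gave fractions is not stated. The deposited TPM values served as an alternative. The tables per library held the same values as the series table.

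Fold changes were (FPKM + 1)/(FPKM + 1) with the thresholds of the study's methods. Intervals were exact Clopper-Pearson 95% intervals. With 1 library per condition, intervals and the floor of 3 counts cover counting error only. The reads carry no molecular identifiers, so PCR copies may be counted as separate reads and intervals can be too narrow. Values in all libraries were fixed to be given for genes past a threshold in an STZ comparison, receptors, transcription factors and the gene with the highest mean FPKM of each role. Of the other pathway genes, the ligands were named, and those past the threshold against buffer if their mean reached 10 counts, except 1 gene that is not reported here. Values of the remaining interferon genes, and sums without Ifnar1 or Kdr, were added after the data had been seen. Genes, lists and motifs were chosen with earlier results of these data known. Alternatives covered the constant, thresholds, filters, CPM, TPM, and scaling by edgeR 4.0.16 (TMM) and DESeq2 1.42.0 in R 4.3.3. Python 3.11.15 with pandas 2.3.3, numpy 2.4.6, scipy 1.17.1 and matplotlib 3.10.9 did the rest. The functions were tested on simulated data.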

Additional observations from a re-analysis of the deposited data

How the results depend on the processing

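No paired analysis was possible because each condition has 1 library, and for the same reason no library could be left out. With a constant of 0.1 in place of 1, 27 genes passed upward in STZ against buffer, 22 upward and 1 downward in STZ against saline, and 3 upward and 3 downward in saline against buffer. With thresholds of 2 and 0.5, 3, 2 and 0 passed upward. From TPM, 17 passed upward in STZ against buffer. By counting intervals 30, 26 and 8 were higher, and 1 was lower in each STZ comparison. The percentages of all genes under these rules stand beside the same counts in the Results. The median log2 fold of the list in STZ against buffer was 0.78 with a constant of 0.1, 0.44 and 0.51 with a minimum mean of 10 and 50 counts, 0.41 from CPM, 0.49 from TPM and 0.33 over genes with whole counts, and 0.41 with Ifit3 at its bound. Against saline these were 0.60, 0.36, 0.38, 0.39, 0.43 and 0.27, and in saline against buffer the median was 0.081 with a constant of 0.1 and 0.094 with a minimum of 50. Of the other pathway genes, 23 passed upward and 1 downward in STZ against buffer with a constant of 0.1, beside 7.77% and 4.51% of all genes. Both scalings, TMM and DESeq2, gave 10 genes upward against buffer and 8 against saline. Over all 18425 genes, TMM gave 380 and DESeq2 381 upward against buffer, and each gave 355 upward against saline. Of 132 fold values of 22 named genes under 6 alternatives, 11 lay on the other side of the threshold (Irf5, Irf7, Ifitm1, Dtx3l, Parp9 and Ifi27), 5 of them with saline as the control. No value passed the lower threshold, but folds near 1 changed side. Ifnar2 went from 1.018 to 0.9934 with TMM, 0.995 with DESeq2 and 0.8845 with saline as the control. Irf2 went from 0.9992 to 1.036 from CPM. The folds of Mx1, Gbp2, Irf5 and Irf7 moved by over 1.5 times with a constant of 0.1, as did that of Mx1 from CPM, at 2.75. At this depth 8 of the 46 genes had a mean under 10 reads, where counting intervals were wide. The causes of these changes were not tested, apart from the constant, which by construction weighs most on low values.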

Other observations

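The ISRE letters were also looked up in genes outside the list, as a description without a test. In STZ against buffer, 26 of 438 other genes with an ISRE match in the promoter window passed the threshold upward (5.94%) and 0 downward, while 246 of 13373 other genes without a match passed upward (1.84%) and 101 downward. Against saline the upward percentages were 5.48% and 1.67%, and in saline against buffer 0.913% and 0.905%. Downward against saline, 3 of these genes with a match passed and 198 without. The median log2 folds of genes with and without a match were 0.039 and 0.02 against buffer and 0.033 and 0.002 against saline. For the GAS letters the upward percentages in STZ against buffer were 2.29% of 1049 other genes with a match and 1.94% of 12762 without, while against saline they were 1.72% and 1.79% and in saline against buffer 0.667% and 0.925%. Within the interferon list, 2 of 16 genes with an ISRE match and 7 of 18 without passed upward against buffer, with median log2 folds of 0.46 and 0.48.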
